A study of Sus scrofa with 14 samples.

Results

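The AKR1C aldo-keto reductases of the pig small intestine were measured by 11 of the 43603 probes of a 1-colour Agilent array. Every probe was taken whose RefSeq accession belongs to AKR1C1, LOC733635 or AKR1CL1. These accessions lead to 4 of the 3025 gene records that could be named, because 2 records carry the symbol AKR1C1. The record with Gene ID 733634 has 3 probes and that with Gene ID 733694 another 3. LOC733635, which the study reads as AKR1C2, has 2 probes, and AKR1CL1 has 3. The genes were singled out for how they moved under onion digest in these same animals, so their onion over saline values are given as a description, without a test.

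The study perfused segments of small intestine in situ (small intestinal segment perfusion, SISP) in anaesthetised male piglets, 5 weeks old and of 8.2 kg. Segments were prepared between 31% and 58% of the length of the small intestine, filled with 20 ml of digest and, from 30 min on, perfused for 6 h with 2 ml per 15 min. RNA came from scrapings of the mucosa of the caudal 10 cm of a segment. Each of 7 pigs gave 2 arrays, 14 in all. In pigs 1, 2 and 4, a segment with digest of yellow onion (YOd) stood beside a segment with the saline digest that served as digestion control (Sd). In pigs 5, 6, 7 and 8, a segment with digest of white onion (WOd) stood beside an Sd segment. The digests had gone through an in vitro digestion, and the Sd fluid went through it without onion. Onion digests were then diluted 1:1 in peptone and the Sd digest 1:3 in a saline solution with casamino acids and glucose, so that onion, diluent and dilution cannot be told apart in onion over Sd. Both segments of a pair were adjacent, and the place of each was rotated over the pigs. Which segment lay nearer to the stomach is not given per array in the sources used here. The pigs of YOd and those of WOd are different animals, and pig 3 was not analysed here.

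AKR1C enzymes use NADPH to reduce aldehydes and ketones, among them steroid hormones, prostaglandins and reactive carbonyls formed from oxidised lipids. In humans, AKR1C1 and AKR1C2 are near-identical neighbours in a cluster of such genes, and both are known targets of NRF2, the transcription factor that raises antioxidant and detoxifying enzymes when the sensor KEAP1 is modified by electrophiles. In the intestinal epithelium these reductases take part in the handling of food-derived compounds. In the Sscrofa11.1 reference order of protein-coding genes, AKR1CL1, AKR1C1 (733634), LOC733635 and AKR1C1 (733694) follow each other, with AKR1E2 next.

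The levels below are the processed signal of a probe, a linear intensity, or its log2 value after division by the 75th percentile of the array, called the log2 level. Values under the pooled 40th percentile of all arrays, a log2 level of -4.43, were raised to that floor. An array had 50.1% to 70.7% of its probes well above background by the scanner software and 545 to 964 saturated. The Sd arrays of pigs 2 and 7 lay on a slide of their own, apart from the slides of the onion arrays of these pigs. In the other 5 pigs both arrays shared a slide. Values are therefore also given for these 5 pigs alone. The number of arrays limits the precision, and in bulk scrapings fewer cells of a type and less RNA per cell cannot be told apart. A probe's signal also depends on its sequence, so levels are compared between arrays for a probe and not between probes.

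Of the 11 probes, 7 were well above background on 14 of 14 arrays and 4 on none. The 7 bright probes were the 3 of AKR1CL1, the 3 of AKR1C1 (733634) and the LOC733635 probe A_72_P440651. The dim ones were A_72_P302809 of LOC733635 and all 3 probes of AKR1C1 (733694), which were A_72_P440641, A_72_P505297 and A_72_P672532. Their 55 signals ranged from 2.31 to 15.8 with a median of 4.16, and 0 of the 55 exceeded the floor. A further value, that of A_72_P672532 on the WOd array of pig 7, was left out as an outlier spot. In the authors' deposited log2 values this probe had a log2 ratio of 4.71 in pig 7 and 0 in the other pigs. With Sd and onion arrays alike not well above background, no ratio was formed for these 4 probes. LOC733635 thus had a bright and a dim probe, and the second AKR1C1 record had no level above the floor among the values kept here. From here on, AKR1C1 stands for record 733634. None of the 11 probes was saturated on any array.

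**Figure D1:**
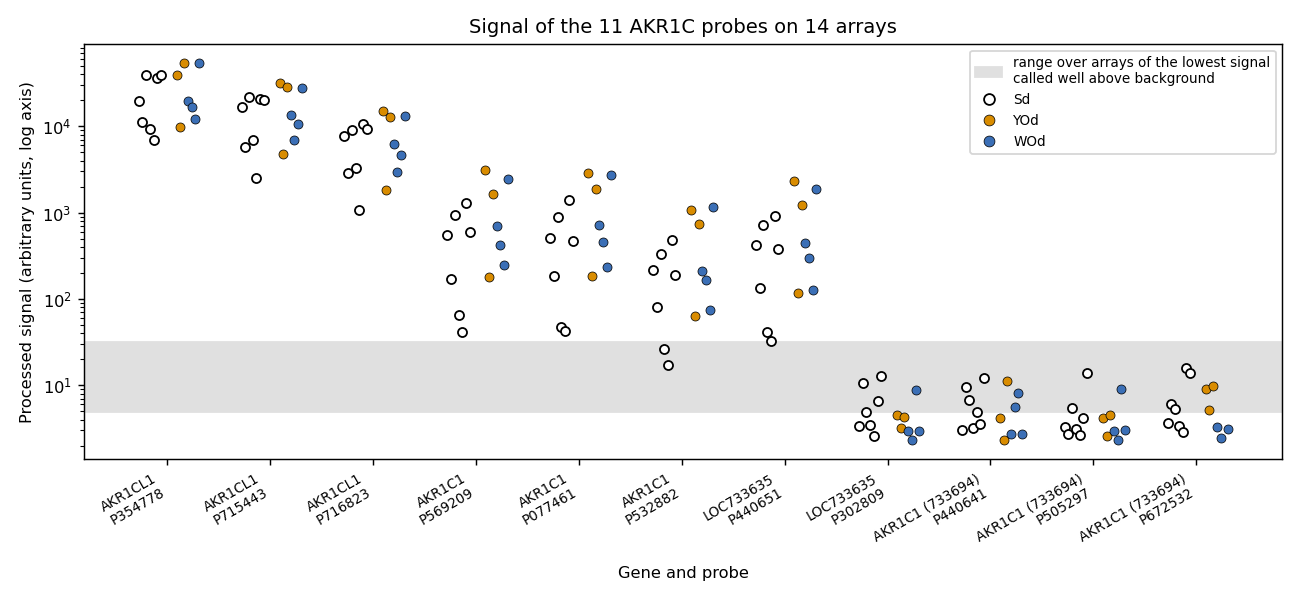
Processed signal (arbitrary units, log axis) of the 11 AKR1C probes, with open circles for Sd, orange for YOd and blue for WOd arrays and a grey band for the range, over arrays, of the lowest signal called well above background. The 7 bright probes reach from 17.4 to 54203, while the 4 dim probes stay between 2.31 and 15.8 in every group.

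In the Sd segments, which received no onion, the AKR1C1 level varied widely from pig to pig. The AKR1C1 probe with the highest mean, A_72_P569209, had Sd signals of 553, 171 and 948 in pigs 1, 2 and 4 and of 64.8, 41.3, 1300 and 597 in pigs 5 to 8. Pigs 5 and 6 were thus lowest, pig 2 lay above them, and pigs 1, 4, 7 and 8 were highest. After scaling, the highest Sd level was 26.3 times the lowest. LOC733635 followed the same order of scaled levels at its bright probe, with Sd signals of 422, 135, 710, 41.9, 32.3, 902 and 379 in pigs 1, 2, 4, 5, 6, 7 and 8, a span of 23.3-fold. AKR1CL1, a less studied member named for its likeness to AKR1C, spread less. Its probe A_72_P354778 had Sd signals of 19623, 11185, 38927, 9285, 6870, 36597 and 39227, a span of 4.49-fold between the scaled values.

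The log2 level over the 7 Sd arrays had an SD of 1.76 for AKR1C1, 1.73 for LOC733635 and 0.88 for AKR1CL1. Among 2184 genes above the floor on all 14 arrays the median SD was 0.38, and AKR1C1 ranked 8, LOC733635 rank 9 and AKR1CL1 rank 140 from the top. The genes above AKR1C1 were ABO, FABP6, C3H2orf40, PI3, EPHX2, CD5L and KMO, a mixed group that includes the blood group glycosyltransferase and the ileal bile acid binding protein. The ranking is a description, since AKR1C1 was chosen on arrays that include these. Pig 6 had the lowest Sd level at 7 of the 7 bright probes, and pig 7 the highest at 5 of 7. With a single array per segment, neighbours in this order have no spread of their own to set them apart.

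The Sd levels of both sets of pigs were also compared. These levels enter the onion over Sd values for which the genes were singled out. For the AKR1C genes the p-values are therefore a description and not an independent test. The Sd level of AKR1C1 was -0.43 ± 1.23 (SD, n = 3) in the YOd pigs and -1.26 ± 2.18 (SD, n = 4) in the WOd pigs. Limma put the difference, WOd pigs minus YOd pigs, at -0.83 on the log2 scale (95% interval -3.23 to 1.57, adjusted p = 0.9996). For LOC733635 it was -0.99 (-3.32 to 1.35) and for AKR1CL1 0.006 (-1.31 to 1.32), with the same adjusted p from limma. A gene is said to pass where limma's raw p was below 0.05 and the fold over 1.5. In this comparison 1.09% of the 2478 genes tested passed (0.404% higher and 0.686% lower in WOd pigs), and 0 of the 3 measured AKR1C genes did. None of the named genes tested reached an adjusted p of 0.05 in YOd/Sd, WOd/Sd, their difference or this comparison by limma. Of them, 277, 68, 110 and 27 had a raw p below 0.05. Below, all genes means these tested genes. Without pigs 2 and 7, whose Sd arrays share the separate slide, the difference was -2.34 for AKR1C1 and -2.49 for LOC733635, past the raw thresholds (adjusted p = 0.996 from limma), and -0.74 for AKR1CL1, which did not pass. That slide is the only one with Sd arrays of both sets of pigs, and with the slide as a block the difference turned to 3.0 for AKR1C1, 2.82 for LOC733635 and 1.79 for AKR1CL1, with adjusted p = 1 from limma. With that block each set is represented by 1 pig, so the value is pig 7 minus pig 2.

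Under onion digest, the bright AKR1C probes were higher than in Sd in 5 of the 7 pigs, close to Sd in pig 2 (log2 ratios of -0.51 to 0.19) and lower in pig 7. Of 49 within-pig ratios of the 7 bright probes, 37 were above 0. All 7 probes were above 0 in pigs 1, 4, 5, 6 and 8, 2 of 7 in pig 2, and 0 of 7 in pig 7. In the 5 pigs with both arrays on a single slide, AKR1C1 and LOC733635 probes were 2.66-fold to 14.1-fold higher with onion. The largest folds, in pigs 5 and 6, divide by dim Sd signals of 17.4 to 64.8. The lowest signal called well above background reached 31.6 on an array. In the authors' floored values, the log2 ratios of pig 6 at these probes were 1.68 to 3.16 in place of 2.80 to 3.37. The upper folds are thus uncertain. AKR1CL1 probes were 1.56-fold to 2.69-fold higher in the same 5 pigs.

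For AKR1C1, the onion signals at A_72_P569209 were 3142, 179 and 1634 with YOd (pigs 1, 2 and 4) and 700, 423, 248 and 2481 with WOd (pigs 5 to 8). Set against each pig's own Sd segment, the YOd log2 ratios were 2.69, 0.19 and 1.41, a mean of 1.43 ± 1.25 (SD, n = 3). With WOd they were 3.35, 3.31, -2.31 and 2.24, the negative one in pig 7, a mean of 1.65 ± 2.69 (SD, n = 4). Onion and Sd levels overlapped across pigs, because the Sd segments of pigs 1, 4, 7 and 8 lay above the onion segments of pigs 2, 6 and 7. Pooled over the 7 pigs, the mean log2 level was -0.91 ± 1.76 (SD) on Sd and 0.64 ± 1.75 (SD) on onion arrays. Over pigs 5, 6 and 8 the mean was 2.96 ± 0.63 (SD, n = 3), and pigs 1 and 4 alone gave 2.05 ± 0.90 (SD, n = 2).

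The other AKR1C1 probes ran in parallel. A_72_P077461 gave log2 ratios of 2.66, 0.12 and 1.67 in pigs 1, 2 and 4 and of 3.81, 3.37, -2.52 and 2.70 in pigs 5 to 8. A_72_P532882 gave 2.50, -0.22 and 1.79, and then 2.91, 2.80, -2.58 and 2.80. In pig 6 the Sd value of this probe was at the floor, so that ratio is a lower bound. The 3 probes differed most in pig 5, from 2.91 to 3.81, and in pig 2 they did not share a sign. Across the 14 arrays their levels correlated with r between 0.990 and 0.996, values from arrays that also share each animal's RNA.

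LOC733635 moved with AKR1C1 at its bright probe. Its onion signals were 2343, 116 and 1240 in pigs 1, 2 and 4 and 442, 301, 126 and 1868 in pigs 5, 6, 7 and 8. The log2 ratio was 2.65, -0.10 and 1.43 with YOd, a mean of 1.33 ± 1.38 (SD, n = 3). With WOd it was 3.31, 3.17, -2.76 and 2.49, a mean of 1.55 ± 2.90 (SD, n = 4), or 2.99 ± 0.44 (SD, n = 3) without pig 7. Levels of this probe and of the 3 AKR1C1 probes correlated with r of 0.9945 to 0.9965 over the 14 arrays, within or near the range of AKR1C1 probes among themselves. Probe sequences were not in the files used here, so whether probes of AKR1C1 and LOC733635 bind each other's transcript was not tested.

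AKR1CL1 went the same way in smaller steps. At A_72_P354778 the onion signals were 39432, 9832 and 54203 in pigs 1, 2 and 4 and 19390, 16675, 12121 and 54051 in pigs 5, 6, 7 and 8. Its log2 ratio was 1.19, -0.06 and 1.10 with YOd, a mean of 0.74 ± 0.70 (SD, n = 3), and 0.98, 1.23, -1.52 and 0.65 with WOd, a mean of 0.33 ± 1.26 (SD, n = 4). In each of the 7 pigs the AKR1C1 ratio was farther from 0 than that of AKR1CL1. In 6 of them every AKR1C1 and LOC733635 probe was farther from 0 than every AKR1CL1 probe, pig 2 being the exception. The dimmer AKR1CL1 probes A_72_P715443 and A_72_P716823 gave mean YOd ratios of 0.65 and 0.59 and mean WOd ratios of 0.51 and 0.46. The 3 probes of the gene stayed within 0.20 of each other in 5 pigs, and within 0.45 in pig 2 and 0.62 in pig 7. AKR1CL1 levels correlated with AKR1C1 levels with r of 0.878 to 0.944 over 14 arrays, according to the pair of probes.

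**Figure D2:**
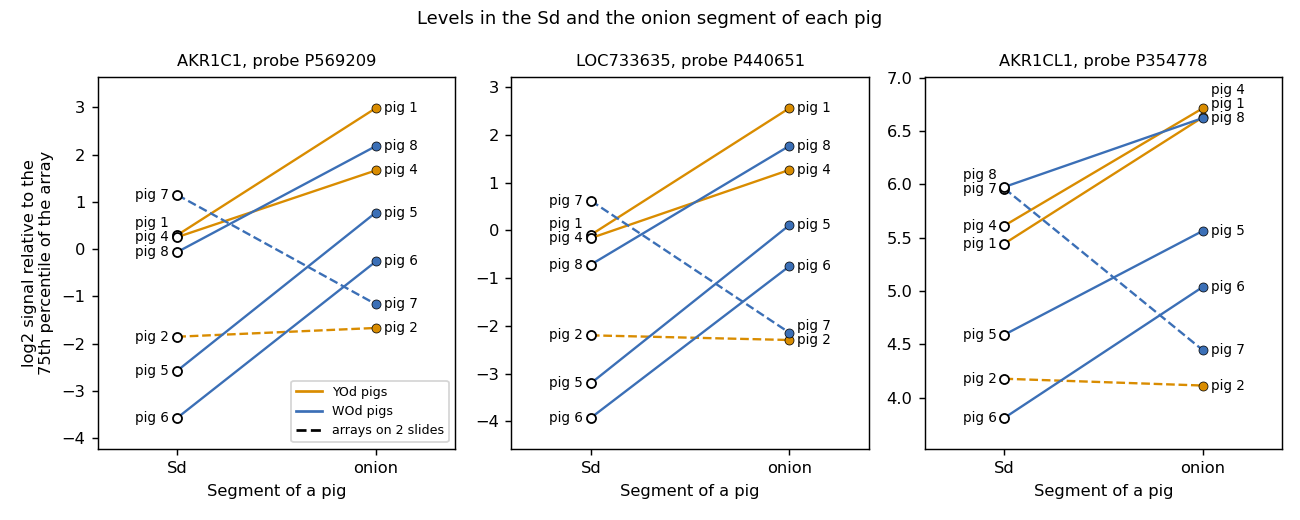
Log2 level (signal relative to the 75th percentile of the array) of AKR1C1, LOC733635 and AKR1CL1 in the Sd and the onion segment of each pig, 1 probe per gene, with a line for each pig and dashed lines for pigs 2 and 7. The lines rise in pigs 1, 4, 5, 6 and 8, stay level in pig 2 and fall in pig 7 for all 3 genes.

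**Figure D3:**
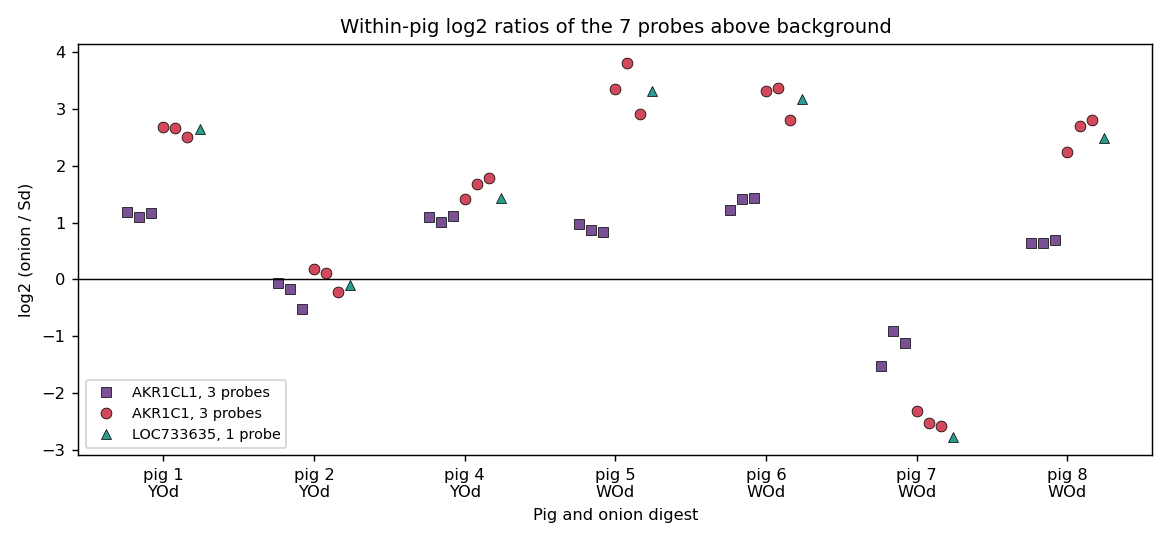
Within-pig log2 ratio of onion over Sd for each of the 7 bright probes, by pig and onion digest, with squares for AKR1CL1, circles for AKR1C1 and a triangle for LOC733635. Probes of a gene differ by up to 0.91 within a pig (AKR1C1 in pig 5). AKR1CL1 lies nearer to 0 than the others except in pig 2, and all 7 probes are below 0 in pig 7. The third AKR1C1 circle of pig 6 is a lower bound.

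Yellow and white onion were compared by the difference between their effects. That difference is formed from the onion over Sd values for which the genes were singled out. For the AKR1C genes its p-values are therefore a description and not an independent test. Subtracting the WOd effect from the YOd effect left -0.22 on the log2 scale for AKR1C1 by limma (95% interval -3.15 to 2.71, adjusted p = 0.973). It was -0.22 (-3.39 to 2.94) for LOC733635 and 0.41 (-1.04 to 1.86, adjusted p = 0.913 from limma) for AKR1CL1. No AKR1C gene passed the thresholds, against 3.64% of the 2557 genes tested (2.35% with the higher value for YOd and 1.29% with the lower). For AKR1C1 and LOC733635 the intervals reach past a log2 difference of 2 in both directions, so the arrays do not show that both onions acted alike. Without pig 7 alone, the differences were -1.54 for AKR1C1 and -1.66 for LOC733635, past the raw thresholds (adjusted p = 0.837 from limma for each). Without pigs 2 and 7 they were -0.92 and -0.95 and did not pass (adjusted p = 0.674 and 0.635 from limma).

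The arrays of pigs 2 and 7 lay within the range of the others in some measures and at its edge in others. Over 2184 genes, the median log2 ratio of pig 7 was 0.11 and the median absolute log2 ratio 0.26, within the range of the other pigs (0.12 to 0.32). After subtraction of group means, the arrays of pig 7 correlated least over these genes, with r = 0.476 against 0.594 to 0.783 in the other 6 pigs. The WOd array of pig 7 had 282 outlier spots and 54.9% of its probes well above background, where only the Sd array of pig 8 had more outlier spots (462) and a lower share (50.1%). Pig 2 had the lowest median absolute log2 ratio, 0.12. The slide cannot be told apart from the animal for these 2 pigs, and the part of the slide and of these array measures in their AKR1C values was not tested.

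Genes beside the cluster and elsewhere in the family did not share the size of these ratios. AKR1E2, the next gene in the reference order, had log2 ratios from -0.12 to 0.54 over the 7 pigs, with signals of 28941 to 63513 and saturation on 2 arrays. KLF6, the nearest gene beyond it with a named probe, ranged from -0.55 to 0.60. Of 12 other aldo-keto reductases looked for, 5 were named on the array and 4 could be tested, and 0 of 4 passed the thresholds in YOd/Sd, where 4.62% of 2468 genes passed. In WOd/Sd, 0 of 4 passed, where 1.17% of 2471 genes did. AKR1A1, the broad aldehyde reductase, changed by 0.30 in YOd/Sd and 0.23 in WOd/Sd, but was saturated on 11 of 14 arrays. For AKR1B1, the aldose reductase, the values were -0.06 and -0.07, and for AKR7A2, which reduces succinic semialdehyde and aflatoxin dialdehyde, -0.03 and 0.03.

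Other enzymes that reduce or oxidise carbonyls had positive values that missed the thresholds. Of 21 such genes looked for, 5 could be tested in YOd/Sd and in WOd/Sd. In each, 0 were called, beside 4.62% and 1.17% of all genes, and 5 of 5 were above 0 in both. The median log2 change of the 5 genes reached 0.35 (YOd/Sd) and 0.30 (WOd/Sd), beside 0.14 and 0.04 over all genes. CBR1, the main cytosolic carbonyl reductase, had log2 ratios of 1.06, -0.34 and 0.58 in pigs 1, 2 and 4 and of 0.63, 0.72, -0.62 and 0.76 in pigs 5 to 8. DHRS4, a peroxisomal retinal and ketone reductase, had 0.55, 0.29 and 0.71, then 0.90, 0.45, -0.43 and 0.26. The DHRS4 ratios had the sign of AKR1C1 at A_72_P569209 in 7 of 7 pigs, though the AKR1C1 probes did not share a sign in pig 2. Those of CBR1 did not, with -0.34 in pig 2. CBR1 and DHRS4 were both below 0 in pig 7. ALDH2, which oxidises aldehydes to acids, was also in the list, with 0.25 in YOd/Sd and 0.13 in WOd/Sd, and was saturated on 6 arrays. Without pigs 2 and 7, 3 of the 5 passed in YOd/Sd, where 13.3% of 2460 genes passed at this setting, and 1 in WOd/Sd, where 3.72% of 2471 did.

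Among NRF2 targets, 16 of 37 listed genes could be tested. In YOd/Sd, 2 of 16 passed, both higher, where 3.65% of all genes passed in that direction. These were NQO1, a quinone reductase, higher by 0.90 on the log2 scale (standard error 0.25), and HMOX1, the haem oxygenase, with 0.69 (standard error 0.23), each with adjusted p = 0.387 from limma. NQO1 had the sign of AKR1C1 at A_72_P569209 in every pig, though the AKR1C1 probes did not share a sign in pig 2. Its log2 ratios were 1.34, 0.15 and 1.21 under YOd and 1.49, 1.17, -1.65 and 1.16 under WOd. Its WOd/Sd mean, 0.54 (standard error 0.50), did not pass. GSTA1 also had the sign of that AKR1C1 probe in every pig, with log2 ratios of -0.05 to 0.69, but was saturated on 7 arrays. HMOX1 did not follow this course, with 0.36, 0.33 and 1.37 under YOd and -0.04 to 0.43 under WOd. Without pig 4 neither NQO1 nor HMOX1 passed (0.75 and 0.35), and without pig 1 NQO1 did not (0.68). Without pigs 2 and 7, 3 of the 16 passed in YOd/Sd and 2 in WOd/Sd, beside 13.3% and 3.72% of all genes at this setting. NQO1 then differed by 1.28 in YOd/Sd over 2 pigs (adjusted p = 0.00901 from limma). That setting was chosen after seeing the data and drops the YOd pig with the smallest NQO1 ratio (0.15). This p is therefore not a test of the onion effect. The median over the 16 genes, 0.31 in YOd/Sd and 0.09 in WOd/Sd beside 0.14 and 0.04 over all genes, rests in part on compressed values, since 8 of the 16 were saturated on some array and 3 on all 14.

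In WOd/Sd, 1 of the 16 NRF2 targets passed, where 0.769% of all genes passed as higher. It was GPX2, the glutathione peroxidase of the gut epithelium, higher by 0.67 (standard error 0.19, adjusted p = 0.998 from limma), or by 0.48 without pig 7, under the fold threshold. Its log2 ratios were 0.63, 0.27, 1.22 and 0.54 in pigs 5 to 8, and 0.44, -0.02 and -1.06 in pigs 1, 2 and 4. Thus GPX2 was highest in pig 7, where the AKR1C genes were below Sd. Its Sd level also differed, WOd pigs minus YOd pigs, by -1.77 (standard error 0.54, adjusted p = 0.9996 from limma). FTH1, TXN, GSTO1 and CES1, the NRF2 targets with the highest mean signal, were saturated on 12 to 14 arrays, so that their ratios (-0.23 to 0.69) are compressed. KEAP1, the 1 of 8 NRF2 regulators that could be tested, had log2 ratios between -0.14 and 0.15.

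**Figure D4:**
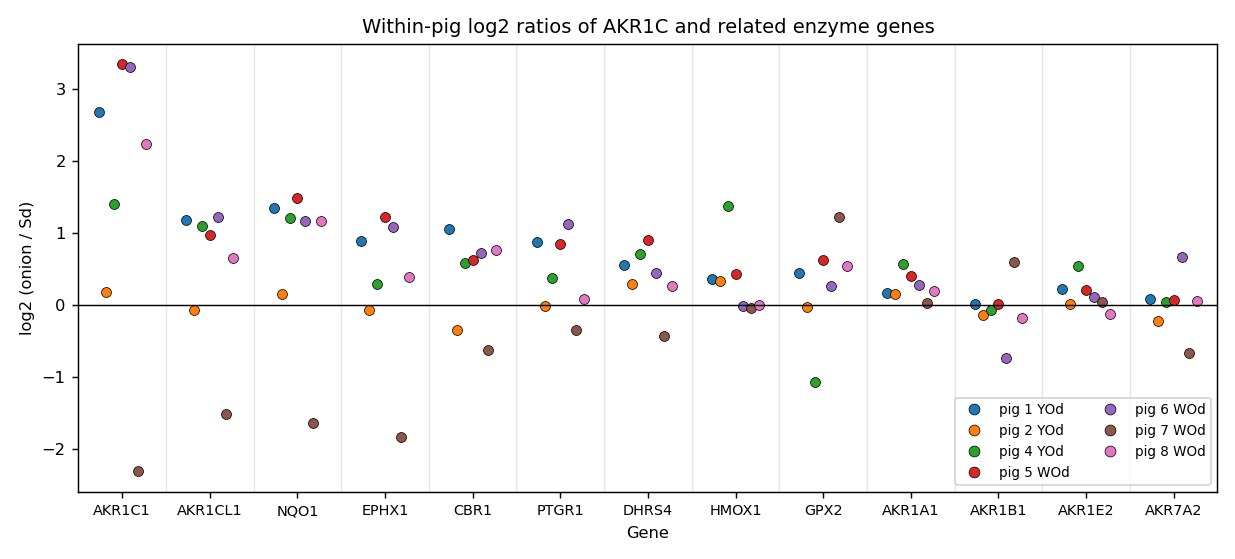
Within-pig log2 ratio of onion over Sd for AKR1C1 (probe A_72_P569209), AKR1CL1 (probe A_72_P354778) and 11 related enzyme genes, with a colour for each pig. AKR1C1 spans -2.31 to 3.35, NQO1 and EPHX1 share its low point in pig 7, and the other aldo-keto reductases on the right lie between -0.73 and 0.67.

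The enzymes that act on AKR1C substrates showed few changes. In the list of steroid enzymes and receptors, 14 of 28 genes could be tested. In YOd/Sd 2 of 14 passed, both higher, beside 3.65% of all genes, and in WOd/Sd 0 of 14, beside 1.17%. HSD3B1, which makes progesterone from pregnenolone, rose by 0.92 in YOd/Sd (standard error 0.14, adjusted p = 0.387 from limma), with log2 ratios of 1.07, 0.91 and 0.79. Unlike AKR1C1 it was higher in pig 2 as well, and under WOd its ratios ran from -0.63 to 1.13, the highest being pig 7. CYP17A1, the 17-alpha-hydroxylase, rose by 0.83 (standard error 0.20, same adjusted p) but was above the floor on 9 of 14 arrays and did not pass without pig 1 (0.57). HSD17B8, HSD17B4, HSD11B1 and HSD17B7, the brightest of the list, did not pass, with YOd/Sd values from -0.15 to 0.39. ESR1, the oestrogen receptor, had the higher Sd level in WOd pigs, by 0.67 (standard error 0.28, adjusted p = 0.9996 from limma), and did not pass without any one of pigs 1, 2, 6, 7 or 8 (0.55 to 0.70).

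Of the genes for prostaglandin synthesis, breakdown and reception, 8 of 20 could be tested and 0 of 8 passed in YOd/Sd (4.62% of all genes) or WOd/Sd (1.17%). PTGR1 reduces oxidised prostaglandins and also acts on leukotriene B4. Its log2 ratios were 0.88, -0.02 and 0.37 in the YOd pigs and 0.85, 1.13, -0.35 and 0.08 in the WOd pigs. Its YOd/Sd mean was 0.41 (standard error 0.20) and its WOd/Sd mean 0.43 (standard error 0.26). PTGES, PPARG and TBXAS1 gave YOd/Sd values of 0.28, 0.20 and 0.15. PTGS2, the inducible cyclooxygenase, differed at Sd by -0.87, WOd pigs minus YOd pigs (standard error 0.28, adjusted p = 0.9996 from limma), or by -0.72 without pig 4, when it did not pass. It was above the floor on 10 of 14 arrays. With pigs 2 and 7 left out, 4 of 14 steroid and 2 of 8 prostaglandin genes passed in YOd/Sd, beside 13.3% of all genes at this setting.

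By the level over 14 arrays, the genes most like AKR1C1 outside the family were DGAT2 (r = 0.912), which makes triglyceride, PTGR1 (r = 0.909), GALM (r = 0.901), the galactose mutarotase, PGLYRP2 (r = 0.882), a peptidoglycan amidase, and CAT (r = 0.877), the catalase. The median r over 2181 genes was 0.21, and 3 genes were above 0.9. By the within-pig ratio over 7 pigs they were GPHN (r = 0.984), EPHX1 (r = 0.983), GPD1 (r = 0.974), GP9 (r = 0.961) and PGLYRP2 (r = 0.957), with 16 genes above 0.9. These correlations are descriptions over few points that share animals, slides and scaling. GPHN, the scaffold protein gephyrin, moved by at most 0.17 in any pig. EPHX1, the microsomal epoxide hydrolase and itself an NRF2 target, had log2 ratios of 0.89, -0.07 and 0.29 and of 1.22, 1.08, -1.83 and 0.40, with the low value in pig 7 as for AKR1C1. Among all 21037 probes above the floor on 14 arrays, 12 outside the AKR1C genes had r above 0.9, and 9 of these carry no gene name here.

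Among genes that mark the proximal small intestine, SLC46A1 and PDX1 varied with AKR1C1 in most pigs, while CYBRD1, SLC11A2 and GATA4 did not pass in either onion comparison. None of the 5 had the sign of AKR1C1 at A_72_P569209 in all 7 pigs. In pig 2 all 5 were below 0, where the AKR1C1 probes did not share a sign. Their median log2 change came to 0.0007 (YOd/Sd) and 0.16 (WOd/Sd), beside 0.14 and 0.04 over all genes. The summed level of 5 genes of the proximal small intestine (these 5 of 8 listed) correlated with the AKR1C1 level with r = 0.798 over 14 arrays. SLC46A1, with the highest mean log2 level (4.41, the next being CYBRD1 with 2.87), weighs most in that sum. SLC46A1 and PDX1 were themselves higher under onion, and the list was chosen with earlier results of these data known. This r is therefore a description and not separate evidence on segment position. The log2 ratio of the sum, onion over Sd, was 1.37, -0.09 and 1.07 in pigs 1, 2 and 4 and 1.34, 0.82, -0.60 and 0.73 in pigs 5 to 8. As for AKR1C1, it was higher in pigs 1, 4, 5, 6 and 8 and lower in pig 7, while pig 2 was near 0. The summed linear level ran from 15.5 to 36.1 over Sd arrays and from 13.7 to 93.0 over onion arrays.

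SLC46A1, the proton-coupled folate transporter, passed in YOd/Sd with 1.02 (standard error 0.32), and PDX1, a homeobox factor of duodenum and pancreas, with 1.25 (standard error 0.38), each with adjusted p = 0.387 from limma. In WOd/Sd, PDX1 passed with 0.96 (standard error 0.25, adjusted p = 0.998 from limma). That is 2 of 5 genes in YOd/Sd and 1 of 5 in WOd/Sd, where 3.65% and 0.769% of all genes passed as higher. SLC46A1 had log2 ratios of 1.60, -0.02 and 1.47 and of 1.82, 1.05, -0.83 and 0.81, PDX1 of 1.78, -0.02 and 2.00 and of 0.93, 1.41, 0.05 and 1.46. CYBRD1, the duodenal ferric reductase, SLC11A2, the iron importer, and GATA4, a transcription factor, had YOd/Sd values of -0.02, 0.0007 and -0.15. Without pig 1, SLC46A1 (0.73) and PDX1 (0.99) did not pass in YOd/Sd, nor without pig 4 (0.79 and 0.88). When pigs 2 and 7 were left out, they differed by 1.53 and 1.89 in YOd/Sd over 2 pigs (adjusted p = 0.00389 and 0.00131 from limma), and PDX1 by 1.26 in WOd/Sd (adjusted p = 0.0966 from limma). This setting was chosen after seeing the data and drops the lowest ratio of each gene under each onion. These p-values are therefore not a test of the onion effect. CYBRD1 differed at Sd by -0.69, WOd pigs minus YOd pigs (standard error 0.28, adjusted p = 0.9996 from limma), and did not pass without any one of pigs 4, 5, 6 or 7 (-0.71 to -0.53).

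Of 9 genes of the distal small intestine, 3 were measured, and their summed level correlated with AKR1C1 with r = -0.683. Its log2 ratio was -0.36, 0.18 and -0.55, then -0.09, -2.17, 0.59 and -0.35. SLC10A2, the ileal bile acid transporter, was the 1 of 3 that passed, at -1.19 in YOd/Sd (standard error 0.43, adjusted p = 0.387 from limma), where 0.972% of all genes passed as lower. It was at the floor on the onion arrays of pigs 4 and 8 and did not pass without pig 4 (-0.51) or without pig 1 (-1.29). FABP6, the ileal bile acid binding protein, differed most, by -6.04 in pig 6, whereas in pig 5 it was 1.53. The part that segment position has in the AKR1C values was not tested.

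**Figure D5:**
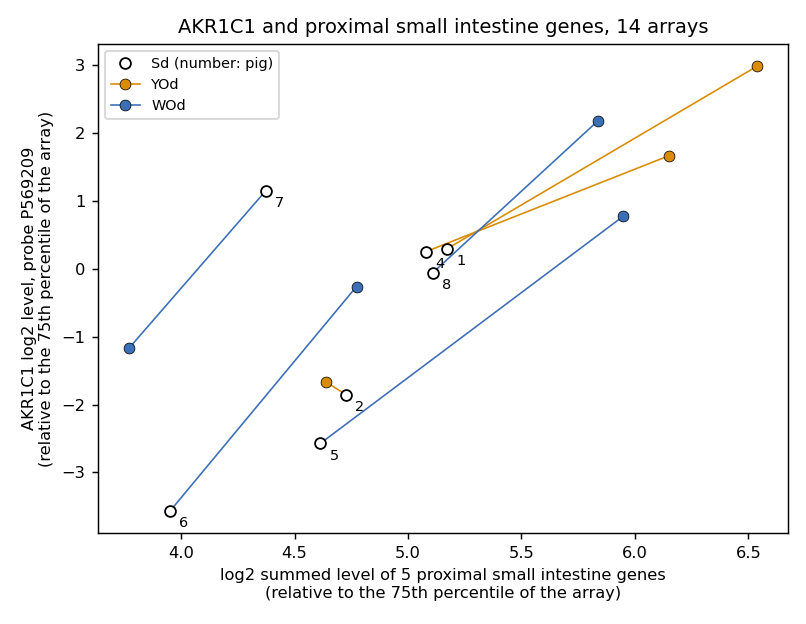
AKR1C1 log2 level (vertical axis, probe A_72_P569209) against the log2 of the summed level of 5 proximal small intestine genes (horizontal axis) on 14 arrays, both relative to the 75th percentile of the array, with open circles for Sd, filled circles for onion and a line joining the segments of a pig. In 6 of 7 pigs the line slopes upward, so that the segment with more AKR1C1 also had the higher sum, and the line of pig 2 is short.

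Markers of other cell types had smaller correlations with AKR1C1 over arrays. The tissue label held, in that all 7 measured enterocyte markers (of 13 listed), among them APOA1, APOA4, FABP1 and FABP2, were bright, but 6 of the 7 were saturated on all 14 arrays and their ratios are not used. The summed level of goblet, Paneth and enteroendocrine markers (8 of 12) correlated with AKR1C1 with r = 0.458. In YOd/Sd, where 3.65% of all genes passed as higher, 1 of 8 did. This was CCK (0.92, standard error 0.27, adjusted p = 0.387 from limma), though not without pig 1 (0.60) or pig 4 (0.84). For crypt and proliferation markers (4 of 8) r was -0.389, with summed levels of 7.57 to 14.4 on Sd and 6.69 to 13.8 on onion arrays. Within pigs, however, their summed level had log2 ratios of -0.05, -0.02 and -0.62 in pigs 1, 2 and 4 and of -0.20, -0.23, 0.56 and -0.72 in pigs 5 to 8. The sign was opposite to that of AKR1C1 at A_72_P569209 in 7 of 7 pigs, pig 7 included. TOP2A and CCNB1, of dividing cells, had this opposite sign in 7 of 7 pigs, ASCL2 and SOX9 did not. In pig 2 these counts rest on ratios near 0. That AKR1C1 probe had 0.19 there, and only 2 of the 7 bright AKR1C probes were above 0. Leukocyte markers (6 of 10) gave r = -0.023 and smooth muscle and stroma markers (4 of 9) r = 0.069. No member of these last 3 lists passed in YOd/Sd or WOd/Sd, where 4.62% and 1.17% of all genes did. At Sd, 0.686% of all genes passed as lower in WOd pigs. Among them were DES and CNN1, of smooth muscle, with -0.80 and -0.92, WOd pigs minus YOd pigs (standard errors 0.34 and 0.41, adjusted p = 0.9996 from limma). Without pigs 2 and 7 these were -0.66 and -0.66 and did not pass. Leukocyte sums ran from 5.98 to 17.9 on Sd and 6.73 to 16.7 on onion arrays, and muscle sums from 22.2 to 42.7 and 13.7 to 49.5. None of 4 red cell markers was named on the array. The part of these cells in the AKR1C values was not tested.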

How the data were processed

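Mucosal scrapings of 14 SISP segments of 7 pigs were measured on 1-colour Agilent arrays. The authors deposited scanner files with an intensity per spot, the processed signal of Feature Extraction 10.7.3.1, background-subtracted on a linear scale. The authors also deposited a table of log2 values that were floored. Its normalization is not given in the text of the study, while the labels name RMA. Outlier and control spots were left out and the spots of a probe averaged. Each array was scaled to its 75th percentile, floored at the pooled 40th percentile and taken to log2. A RefSeq accession named 6686 of 43603 probes through the Sscrofa11.1 gene table, used for names and gene order only. Genes were kept apart by Gene ID, and a gene was represented by its probe of highest mean level.

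YOd/Sd and WOd/Sd were fitted with limma 3.58.1 (R 4.3.3), each pig being its own block because the methods pair segments within animals. Genes entered a test if at least 3 (YOd/Sd) or 4 (WOd/Sd) arrays exceeded the floor. The YOd effect minus the WOd effect used all 14 arrays, and the Sd baseline the 7 Sd arrays without a block. Calls needed a raw p below 0.05 and over 1.5-fold, and 0 genes passed a Benjamini-Hochberg adjusted p of 0.05 in any of the 4 comparisons. Missing outlier values were left out of a gene's fit. Arrays of the same animal pair by design, and after subtraction of group means they correlated with r of 0.476 to 0.783 over 2184 genes. Replicates are separate pigs, with 1 array per segment.

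The AKR1C genes and the gene lists were chosen with earlier results of these data known. Named were all AKR1C probes, list genes past the thresholds in any comparison, up to 4 further genes per list with the highest mean signal, and the 5 genes most like AKR1C1 by level and by ratio. KLF6, C3H2orf40 and the other genes named for order or rank, and DHRS4 and GSTA1 for their sign, were picked after their values were seen. Alternatives were quantile normalization, no scaling, normexp background correction (offset 50, on the median signal, since the files hold no mean signal), no floor, no filter on dim genes, the median over probes, every probe counted, the authors' values, no block, the slide as a block and each pig left out. Leaving out pigs 2 and 7 together was added after seeing the data. The fits were checked on simulated data.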

Additional observations from a re-analysis of the deposited data

Results flagged for a closer look

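Of 21 sets of AKR1C ratios and levels examined for a pig far from the others, 2 stood out. Chance alone marks about 1 set in 20 where sets are separate. These sets share pigs and come from probes that vary together, so the count cannot be set against that rate. Both sets that stood out were log2 ratios of pig 7 among the 4 WOd pigs, from the same arrays. They were -2.58 at the AKR1C1 probe A_72_P532882 and -2.76 at the LOC733635 probe A_72_P440651. The other AKR1C1 probes had ratios nearly as low in pig 7 and a wider spread among pigs 5, 6 and 8. GPX2 differed between the onions, with a YOd effect minus WOd effect of -0.88 on the log2 scale (standard error 0.37, adjusted p = 0.846 from limma). It was higher than Sd in 4 of 4 WOd pigs and in 1 of 3 YOd pigs. It no longer passed without pig 4 (-0.45) or pig 7 (-0.69), nor without pigs 2, 5 or 8 (-0.97, -0.89 and -0.92).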

How the results depend on the processing

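The mean ratios of the 7 bright AKR1C probes stayed above 0 under every alternative that gave a ratio per probe. With all pigs they lay between 0.28 and 1.48 for YOd/Sd and between 0.30 and 1.86 for WOd/Sd. With each pig left out in turn, AKR1C1 at A_72_P569209 gave 0.80 to 2.05 in YOd/Sd and 1.08 to 2.96 in WOd/Sd, the highest without pigs 2 and 7, respectively. AKR1CL1 at A_72_P354778 gave 0.52 to 1.14 in YOd/Sd and, from 0.33, 0.03 (without pig 6) to 0.95 (without pig 7) in WOd/Sd.

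The counts of genes past the thresholds moved with the settings, from 114 in YOd/Sd, 29 in WOd/Sd, 93 for the difference between the onions and 27 for the Sd baseline. In that order, they were 20, 17, 47 and 14 without the filter on dim genes, 1298, 339, 1601 and 295 with every probe counted, and 327, 92, 198 and 73 without pigs 2 and 7. The first 3 were 65, 12 and 49 with normexp, 10, 12 and 38 from the authors' values, and 325, 91 and 195 with the slide as a block. Without the pairing of arrays by pig (no replicate block) they were 20, 10 and 5. Quantile normalization gave 63 in YOd/Sd, and no scaling 43 for the baseline. Leaving out each pig gave 50 to 327 (highest without pig 2), 42 to 92 (highest without pig 7), 45 to 163 and 23 to 61. The cause of these changes was not tested.

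The signs of the AKR1C comparisons between the sets of pigs were not stable. For the difference between the onions, normexp gave 0.11 for AKR1C1 and 0.24 for LOC733635. Leaving out each pig gave -1.54 to 0.40 for AKR1C1, -1.66 to 0.49 for LOC733635 and -0.21 to 0.81 for AKR1CL1. For the Sd baseline, the slide as a block gave 3.0 for AKR1C1 and 2.82 for LOC733635. For AKR1CL1 the baseline was -0.23 without scaling, -0.059 with normexp, -0.22 with the median over probes, -0.74 without pigs 2 and 7, and -0.45 to 0.43 with each pig left out. Adjusted p from limma for the AKR1C genes lay between 0.635 and 1 over all settings. Of 357 settings of single genes, 234 kept sign and call, 100 lost the call, 4 gained it and 19 changed sign. Signals near background limit the dim probes, for which no change could be measured, and 3 and 4 pigs per onion limit the rest.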
